A study of Mus musculus with 14 samples.

Results

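Chromatin accessibility at the genes of 6 transcription factors that direct helper T cell lineages (Gata3, Tbx21, Eomes, Rora, Bcl6 and Maf) was followed in regulatory T (Treg) cells after degradation of Foxp3, the transcription factor that defines these cells. A window of the count table was assigned to a gene when the protein-coding start site nearest to its centre belonged to that gene and lay no more than 100 kb away. This gave 174 of 240778 windows (0.0723%), each 201 bp long and named by GRCm38 (mm10) coordinates. Gata3 had 67 of them, Eomes 52, Bcl6 27, Tbx21 16, Maf 12 and Rora 0. Because neighbouring windows overlap, the 174 windows formed 113 separate regions, and 99 of the 174 overlapped another and shared reads with it. For Rora, the windows inside the annotated gene were described instead, a choice made after the rule had given none.

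The assay for transposase-accessible chromatin with sequencing (ATAC-seq) was applied to Treg cells of spleen and lymph nodes from 14 adult mice, 1 library per mouse. Every mouse carried Foxp3-AID, a Foxp3 allele whose protein bears an auxin-inducible degron, and every mouse received 5-ph-IAA, the ligand of the degron system. Foxp3-AID ROSA26-TIR1(F74G) mice, called TIR1 here, also carried the plant ubiquitin ligase subunit TIR1 with the F74G substitution, which binds this ligand and sends the tagged protein to the proteasome. Foxp3-AID ROSA26-WT mice, called WT here, lacked TIR1 and were the controls. There were 4 WT and 4 TIR1 mice after 3 days of 5-ph-IAA and 3 WT and 3 TIR1 mice after 7 days. Per the study's methods, the Foxp3-AID allele also encodes the ZsGreen reporter and Cre, and TIR1 lies behind a loxP-flanked stop cassette, so that TIR1 is made in cells that express, or whose ancestors expressed, Foxp3. The females studied were heterozygous for the X-linked tagged allele and kept Treg cells with untagged Foxp3 in the same animal. Per the study, the cells assayed were sorted by ZsGreen, which the tagged allele encodes. By design this sort leaves out the Treg cells with untagged Foxp3. The study describes separate sorts of resting and activated cells on day 7, but the labels give no such state for any library, so it could not be used here, and any difference in it between days cannot be told apart from day. Degradation acts on the protein, so no window of this assay measures whether Foxp3 was lost.

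The 6 factors are known as master regulators of helper T cell fates. T-bet (Tbx21) and its relative eomesodermin (Eomes) drive type 1 and cytotoxic programmes, GATA3 drives type 2 helper cells, RORα (Rora) acts with RORγt in type 17 cells, BCL6 is the repressor that defines follicular helper cells, and c-Maf (Maf) promotes IL-10, IL-4 and IL-21. Treg cells can express each of them alongside Foxp3, and subsets of Treg cells that carry one of these factors are known to restrain the matching type of immune response. An accessible window shows that the transposase could reach the DNA there. It shows neither transcription nor which protein was bound.

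RefSeq promoter sequences of the same build were at hand for 5 of the 6 genes (Gata3, Tbx21, Eomes, Bcl6 and Rora), and the 4 whose start lies inside a window are shown because they are the DNA on which the promoter accessibility below was measured. Each line gives the 250 bases before the start site, 5′ to 3′ on the strand of the gene. The stretches are chr2:9878601-9878850 (minus strand) for Gata3, chr11:97115332-97115581 (minus) for Tbx21, chr9:118477939-118478188 (plus) for Eomes and chr16:23988853-23989102 (minus) for Bcl6. Capitals mark matches to the searched motifs, which are GC boxes (3 in Tbx21 that share their end bases) and, in Bcl6, also a BCL6 and STAT site. Eomes held none.
Gata3: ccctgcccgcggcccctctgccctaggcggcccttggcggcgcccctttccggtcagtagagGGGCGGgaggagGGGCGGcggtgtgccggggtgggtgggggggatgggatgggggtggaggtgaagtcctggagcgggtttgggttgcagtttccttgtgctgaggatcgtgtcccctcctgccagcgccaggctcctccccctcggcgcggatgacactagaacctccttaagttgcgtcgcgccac
Tbx21: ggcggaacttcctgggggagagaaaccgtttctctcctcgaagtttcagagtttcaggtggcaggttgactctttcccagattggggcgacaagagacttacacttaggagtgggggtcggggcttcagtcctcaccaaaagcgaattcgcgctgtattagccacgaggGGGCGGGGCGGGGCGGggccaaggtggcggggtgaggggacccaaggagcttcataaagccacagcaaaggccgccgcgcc
Eomes: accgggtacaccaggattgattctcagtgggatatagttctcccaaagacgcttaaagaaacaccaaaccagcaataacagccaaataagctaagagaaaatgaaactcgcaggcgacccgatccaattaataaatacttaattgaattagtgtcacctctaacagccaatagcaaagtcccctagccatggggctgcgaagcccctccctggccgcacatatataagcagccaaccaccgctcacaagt
Bcl6: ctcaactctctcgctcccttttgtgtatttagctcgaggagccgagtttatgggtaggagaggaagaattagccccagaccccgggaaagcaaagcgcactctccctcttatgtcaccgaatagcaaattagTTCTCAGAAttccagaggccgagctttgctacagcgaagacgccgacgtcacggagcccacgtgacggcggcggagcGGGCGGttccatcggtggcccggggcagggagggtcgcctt

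The start-site window covered the last 88 of these bases in Gata3, the last 60 in Tbx21, the last 126 in Eomes and the last 162 in Bcl6, and ran on past the start in each. The motifs were searched on both strands of the bases before the start and none of them contains another. They were TGTTTAC for forkhead factors such as Foxp3 (held by 3.17% of the 32851 promoters of the RefSeq table), AGATAAG for GATA factors (2.74%), AGGTGTGA for T-box factors (1.12%), TAGGTCA for ROR factors (2.23%), TGACTCAGC for AP-1 joined to a Maf element (0.39%) and TTCNNNGAA for BCL6 and STAT factors (7.02%). The GC box GGGCGG (32.7%) and the TATA box TATAAA (12.4%) were added after the sequences had been seen. The only match of the first 6 motifs in the 4 shown promoters was TTCTCAGAA, a BCL6 and STAT site at positions -118 to -110 from the Bcl6 start and inside its start-site window. A second Bcl6 promoter at position 23981283, inside the gene, held 3 such sites (TTCCTGGAA, TTCTGTGAA and TTCCGGGAA) but lay under no window. A match is a description of letters and says nothing about binding. The GC share of the 250 bases was 70.0% in Gata3, 60.8% in Tbx21, 58.4% in Bcl6 and 46.4% in Eomes, against a median of 52.4% over all promoters.

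Total counts ran from 5653289 in a TIR1 mouse on day 3 to 20184487 in a TIR1 mouse on day 7, and the deepest and shallowest libraries were both TIR1. Levels are given as CPM (counts scaled to a common library total) after TMM scaling over the 14 libraries, and all windows have the same length, so that levels can be compared between genes. Start-site windows (within 1 kb of a start) of 6 of 8 Treg cell marker genes summed to between 56.8 and 78.2 CPM per library, and Foxp3 and Tnfrsf18 had none. Means of the 6 ran from 3.20 CPM at Ikzf4 to 20.9 CPM at Ikzf2. Their median was 12.2 CPM, against 17.2 CPM over all genes with a start-site window. The 3 B cell markers with a start-site window had sums of 4.01 to 8.40 CPM, and Ms4a1 and Pax5 had none. Myeloid markers had one for 4 of 9, with sums of 11.3 to 14.3 CPM, and Lyz2 and Csf1r had none. The CD8 T cell genes Cd8a (mean 1.33 CPM) and Cd8b1 (mean 12.5 CPM) summed to 11.3 to 15.5 CPM. Of 4 NK cell genes only Klre1 had a start-site window, at 4.32 to 7.91 CPM. Sums of 10 resting Treg genes were 199 to 277 CPM and of 9 activated Treg genes 90.6 to 125 CPM. Each sum grows with the number of genes in it, so sums of different lists cannot be compared as shares of cells. The sums of WT and TIR1 mice overlapped on both days for each of these lists, and the part of cell composition in any result was not tested. In bulk samples a smaller share of cells with an open site and less opening per cell cannot be told apart. Library names carry a mouse name that starts with E for WT replicate 4 and TIR1 replicates 3 and 4 on day 3 and TIR1 replicate 3 on day 7, and with AC for the other 10.

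The loci differed widely in accessibility, and they did so in the same order in every library. Summed over its windows, Gata3 lay between 246 and 291 CPM in the 14 libraries, Bcl6 between 145 and 186, Eomes between 124 and 137, Maf between 90.1 and 107.8 and Tbx21 between 34.6 and 45.7. None of these ranges overlapped its neighbour in the order. Part of this order comes from the number of windows, and the median CPM of a single window gave another one: 5.51 in Maf, 4.11 in Bcl6, 2.09 in Tbx21, 1.92 in Eomes and 1.40 in Gata3, against 1.80 over all windows of the table. The windows with the most signal lay at Maf, Bcl6 and Gata3. A window 1009 bp upstream of the Maf start had 32.0 CPM and was above 98.4% of all windows, the Bcl6 start-site window had 29.0 CPM (98.0%), and a window 1055 bp upstream of the Gata3 start had 27.5 CPM (97.8%). Tbx21 and Eomes were different, since their start sites were less accessible than a window more than 10 kb away.

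**Figure D1:**
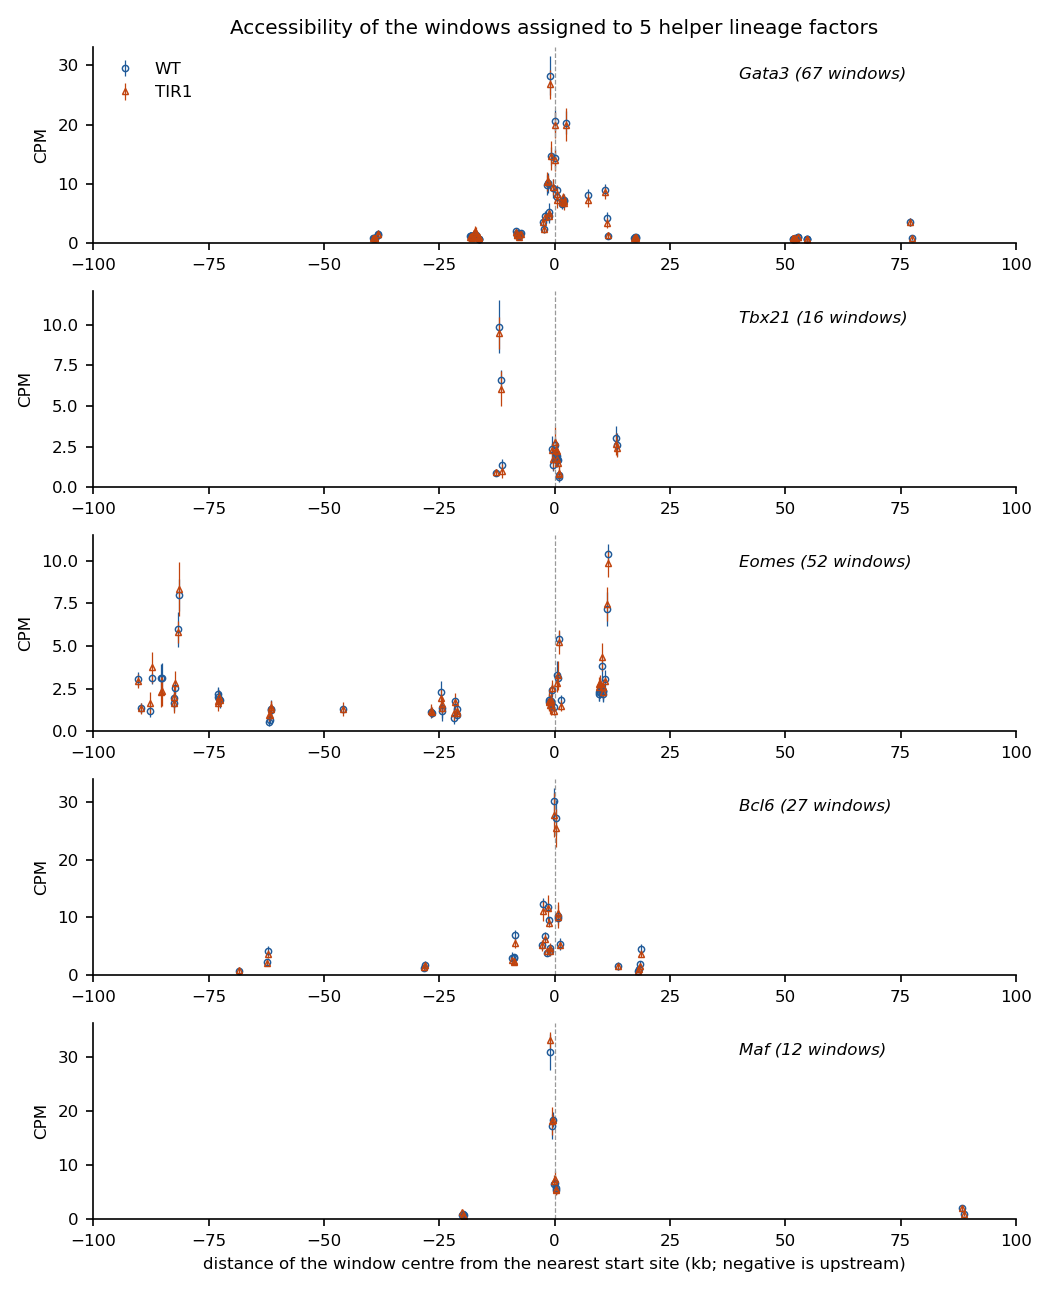
Mean accessibility in CPM (linear axis) of each window assigned to Gata3, Tbx21, Eomes, Bcl6 and Maf against the distance of its centre from the nearest start site in kb, with open circles for 7 WT and open triangles for 7 TIR1 mice over both days and bars for the SD. Signal is highest next to the start of Gata3, Bcl6 and Maf, whereas the highest window of Tbx21 lies 11959 bp upstream (9.70 CPM) and that of Eomes 11626 bp downstream (10.1 CPM). The symbols of the genotypes lie on or next to each other throughout.

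Whether loss of Foxp3 changes accessibility at these genes was asked by comparing TIR1 with WT mice on each day, and then in all 14 mice together. No window of the 5 genes passed an adjusted p of 0.05 (edgeR quasi-likelihood test, Benjamini-Hochberg over all windows tested) in any of these comparisons. On day 7, 0 of 173 tested windows passed, against 11 of 237811 windows (0.00463%) over the table. On day 3 it was 0 of 168, against 0 of 235515 (0%), and over both days with a term for day 0 of 174, against 27 of 240778 (0.0112%). DESeq2 called 0 of 173 on day 7 and 0 of 168 on day 3, and 0 over all windows on either day (0%). Over both days its filter on low counts gave an adjusted p to 28 of the 174 member windows and called 0 of these, against 155 of 30712 windows (0.505%), so most members were not tested by it there. At an unadjusted p under 0.05 there were 6 windows on day 7 (3.47%, background 5.95%), of which 5 were lower in TIR1 (background 3.2%), 5 on day 3 (2.98%, background 7.55%), of which 4 were lower (background 3.62%), and 6 over both days (3.45%, background 6.73%), of which 4 were lower (background 3.57%). These shares lay below those of the whole table.

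The median log2 fold change of the members, TIR1 against WT, was -0.04 on day 7 (all windows -0.01). It was 0.08 on day 3 (all windows 0.01), and -0.02 with the days combined (all windows 0.00). On day 3, 102 of 168 member windows lay above 0, against 120471 of 235515 over the table. Medians were 0.10 for Gata3 (42 of 64 above), 0.13 for Eomes (36 of 52 above) and -0.12 for Bcl6 (17 of 25 below). These counts and medians carry no test. By gene, the medians over both days were -0.04 for Gata3, 0.01 for Tbx21, 0.04 for Eomes, -0.08 for Bcl6 and -0.01 for Maf. No member window differed by more than 1 on the log2 scale in any of the 3 comparisons. The largest difference was -0.95 at a Tbx21 window on day 7, which had a mean of 17.3 reads per library.

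**Figure D2:**
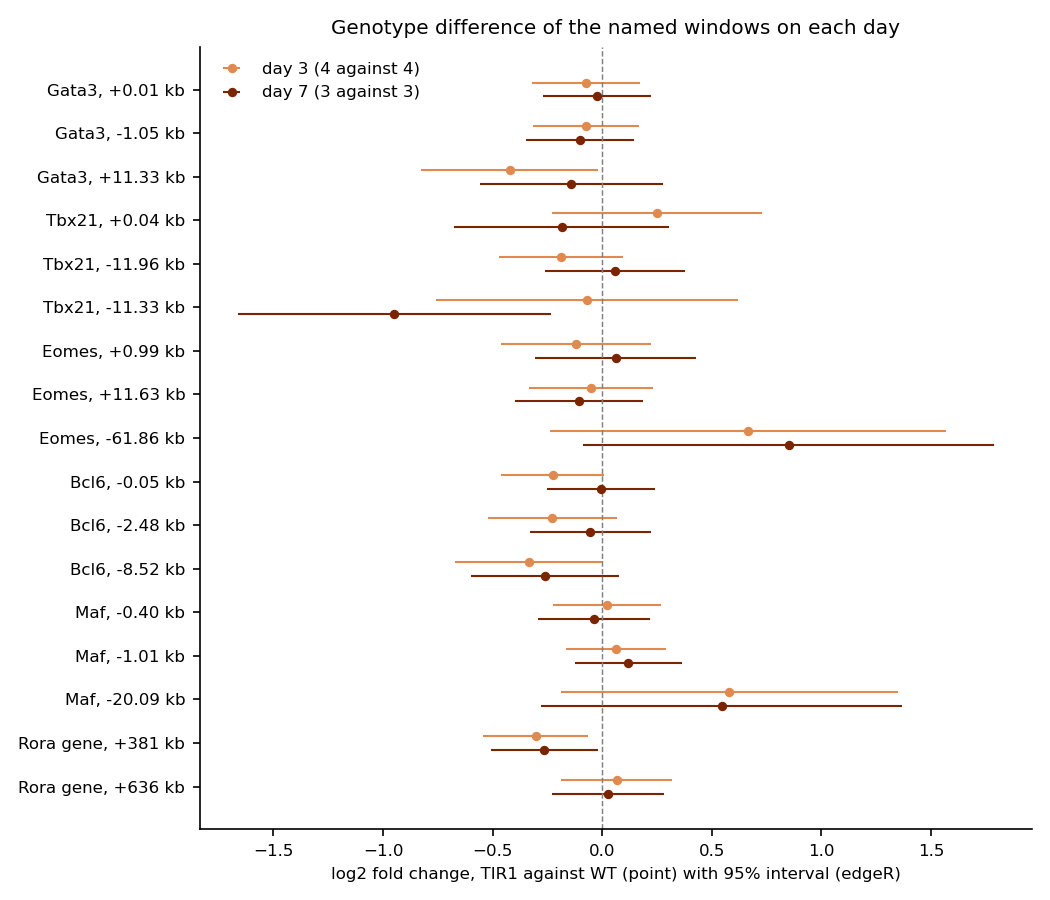
Log2 fold change of TIR1 against WT mice on day 3 (4 against 4) and day 7 (3 against 3) with its 95% interval from edgeR, for 3 windows each of Gata3, Tbx21, Eomes, Bcl6 and Maf and 2 windows inside Rora, labelled by distance from the start site in kb. The 10 highest windows near and away from the start sites of the 5 genes all have intervals that span 0, and wide intervals belong to windows with few reads. The third window of each of these genes and the Rora window at 381 kb have the smallest p over both days in their gene, so their distance from 0 is no independent result, and the other Rora window was picked for its position.

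At Gata3, the type 2 factor, accessibility was concentrated at the start site and in a block just before it. The start-site window chr2:9878487-9878688 had 18.9, 18.8, 20.2 and 18.9 CPM in the 4 WT mice and 19.4, 16.8, 19.6 and 17.5 CPM in the 4 TIR1 mice on day 3. On day 7 it had 21.6, 23.0 and 22.6 CPM in WT and 22.7, 21.6 and 21.9 CPM in TIR1 mice. The genotypes overlapped on both days, while all 6 mice of day 7 lay above all 8 of day 3. The genotype difference was -0.05 ± 0.09 (SE) on the log2 scale over both days (95% interval -0.22 to 0.12, adjusted p = 0.957). The day difference was 0.23 ± 0.13 in WT (adjusted p = 0.966) and 0.28 ± 0.12 in TIR1 mice (adjusted p = 0.649), and neither passed the test.

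The highest Gata3 window, chr2:9879555-9879756, lies 1055 bp before that start and inside the annotated gene (chr2:9857078-9887953), whose outermost start at 9887953 is farther upstream. It ranged from 22.6 to 31.2 CPM in WT and from 23.3 to 31.1 CPM in TIR1 mice, with a difference of -0.09 ± 0.09 (adjusted p = 0.915). Of the 67 windows, 20 lay inside the gene and 12 more than 50 kb from a start, the farthest 77568 bp downstream. The window with the smallest p over both days, 11332 bp downstream at chr2:9867168-9867369, had 3.38, 3.31, 4.71 and 5.13 CPM in WT and 2.70, 3.00, 3.35 and 3.22 CPM in TIR1 mice on day 3. On day 7 the WT mice had 4.07, 3.95 and 5.70 CPM and the TIR1 mice 3.64, 5.19 and 3.19 CPM. On day 3 only the lowest WT mouse fell below the highest TIR1 mouse, and the groups overlapped on day 7 (difference -0.29 ± 0.15, adjusted p = 0.743).

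Tbx21, which encodes T-bet, had the lowest summed CPM of the 5 genes, over 16 windows. Its median window (2.09 CPM) was above those of Eomes (1.92 CPM) and Gata3 (1.40 CPM). The Tbx21 start-site window chr11:97115190-97115391 had 1.82, 2.58, 2.73 and 2.36 CPM in WT and 4.32, 2.47, 1.79 and 3.54 CPM in TIR1 mice on day 3. On day 7 it had 3.04, 2.50 and 3.15 CPM in WT and 2.30, 1.91 and 3.24 CPM in TIR1 mice. Among the genes with a start-site window, 11.7% had a lower one, and the median gene had 17.2 CPM. The groups overlapped on both days, with a difference of 0.05 ± 0.18 (95% interval -0.30 to 0.40, adjusted p = 0.983). The strongest Tbx21 window, chr11:97127190-97127391, is intergenic and 11959 bp upstream. It had 10.3, 10.6, 10.0 and 10.9 CPM in WT and 9.35, 9.87, 7.97 and 9.57 CPM in TIR1 mice on day 3, where every WT mouse was above every TIR1 mouse. On day 7 it had 10.0, 11.0 and 6.30 CPM in WT and 11.2, 9.42 and 9.11 CPM in TIR1 mice, where the groups overlapped. The difference on day 3 was -0.19 ± 0.14 (adjusted p = 0.806) and on day 7 0.06 ± 0.16 (adjusted p = 0.983), so that neither passed the test. Of the 16 windows, 10 lay within 1 kb of the start and the other 6 between 11330 and 13462 bp away.

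Eomes, the second T-box factor, had many windows, spread as far as 90382 bp upstream, with a median of 1.92 CPM (1.80 CPM over all windows). Of its 52 windows, 37 lay upstream, 19 of them more than 50 kb away, and only 4 inside the gene. One of these, 81505 bp upstream, was the second highest of the locus at 8.15 CPM, with a difference of 0.01 ± 0.11 (adjusted p = 0.994). The highest window, chr9:118489715-118489916, lies 11626 bp downstream of the start and past the end of the gene. It had 9.96, 9.99, 10.0 and 11.3 CPM in WT and 9.89, 10.6, 8.72 and 10.7 CPM in TIR1 mice on day 3, and 10.4, 10.0 and 11.1 CPM in WT and 9.09, 9.42 and 10.5 CPM in TIR1 mice on day 7. The groups overlapped on both days (difference -0.08 ± 0.10, 95% interval -0.28 to 0.12, adjusted p = 0.939). The window over the Eomes start itself (chr9:118478063-118478264) had 1.31 CPM, and the highest within 1 kb, 995 bp into the gene, had 5.33 CPM with a difference of -0.04 ± 0.12 (adjusted p = 0.979).

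Bcl6, the follicular helper factor, had an open promoter, where the start-site window (29.0 CPM) and the next one 279 bp into the gene (26.4 CPM) led. Other accessible windows lay 2484 bp upstream (11.7 CPM) and, inside the gene, 1418 bp before the second annotated start (11.7 CPM). The start-site window chr16:23988813-23989014 had 32.6, 27.1, 30.9 and 29.4 CPM in WT and 28.1, 27.6, 24.6 and 22.6 CPM in TIR1 mice on day 3. On day 7 it had 32.5, 31.3 and 27.3 CPM in WT and 32.8, 26.1 and 32.4 CPM in TIR1 mice. TIR1 mice were lower on day 3 with 1 WT mouse among them, and the groups overlapped on day 7. The difference was -0.23 ± 0.12 on day 3 (95% interval -0.46 to 0.01, adjusted p = 0.676) and -0.0044 ± 0.12 on day 7 (interval -0.25 to 0.24, adjusted p = 0.999). Of the 27 Bcl6 windows, 20 had a value below 0 over both days, against 118708 of 240778 over the table. The 27 windows formed 23 regions in the same mice, and the count carries no test. The summed level of Bcl6 on day 3 was 169 to 182 CPM in WT and 145 to 174 CPM in TIR1 mice, and the 2 lowest TIR1 mice were replicates 3 and 4, whose names start with E. WT replicate 4, the third mouse of day 3 with such a name, was at the top of the WT range. The part of the name in the summed level was not tested. At the start-site window, the day 3 fits on all mice, among them one with a term for the name prefix, gave differences of -0.226 to -0.145.

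A group of 3 adjacent Bcl6 windows, 8524 to 8851 bp upstream and intergenic, held all 3 Bcl6 windows with an unadjusted p under 0.05 over both days. The first, chr16:23997290-23997491, had 5.45, 6.22, 7.03 and 8.03 CPM in WT and 4.14, 5.42, 5.29 and 6.03 CPM in TIR1 mice on day 3. On day 7 it had 6.78, 8.02 and 7.20 CPM in WT and 5.08, 6.02 and 7.28 CPM in TIR1 mice. The means of TIR1 mice were lower on both days, and the groups overlapped on both. The difference over both days was -0.30 ± 0.12 (95% interval -0.54 to -0.06, unadjusted p = 0.0149, adjusted p = 0.637), and those of the other two windows were -0.38 and -0.39. None passed the adjusted test, and 2 of the 3 windows share reads.

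**Figure D3:**
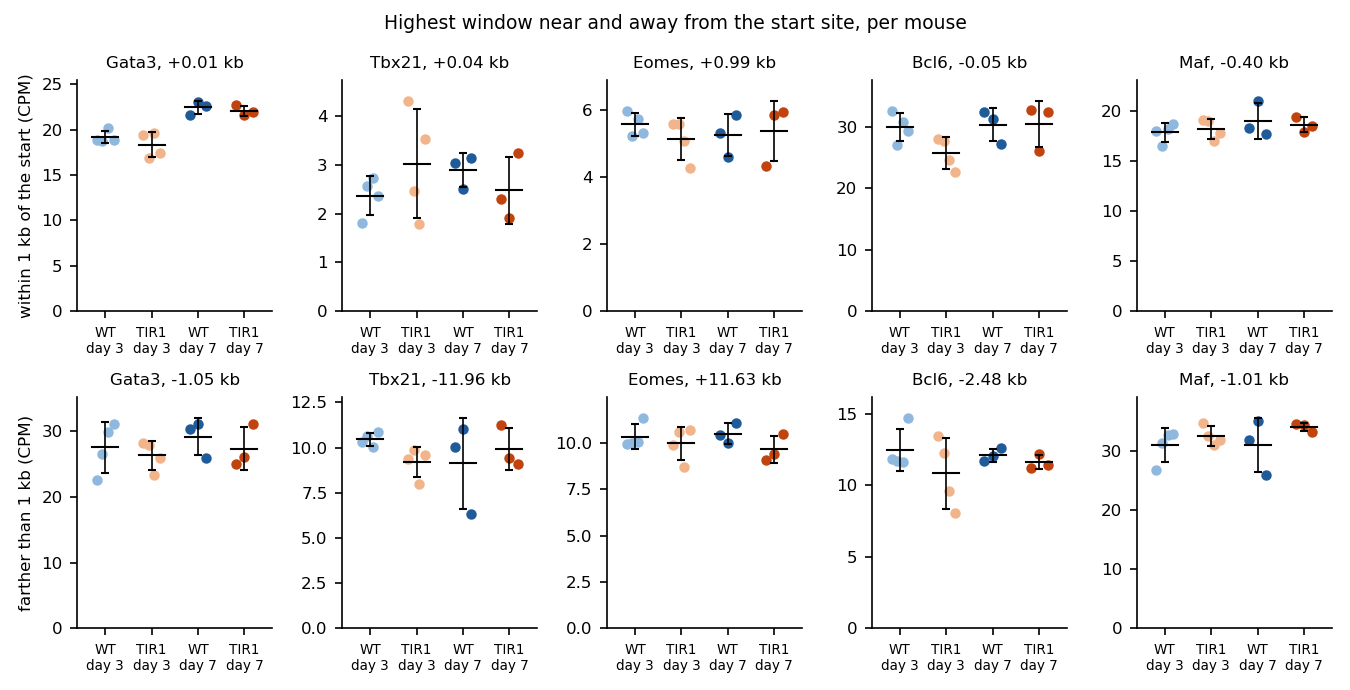
Accessibility in CPM of the highest window within 1 kb of a start site (top row) and the highest farther away (bottom row) for Gata3, Tbx21, Eomes, Bcl6 and Maf, with 1 point per mouse, the mean as a line and the SD as a bar, in 4 WT and 4 TIR1 mice on day 3 and 3 and 3 on day 7. Axes are linear and start at 0. TIR1 mice of day 3 lie between 22.6 and 28.1 CPM at the Bcl6 start and those of day 7 between 26.1 and 32.8 CPM, and at the Gata3 start the step is between days rather than genotypes.

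Maf had few windows and the most accessible single one. The window chr8:115707803-115708004, upstream of the gene, had 26.8, 31.4, 32.7 and 32.9 CPM in WT and 34.7, 32.5, 30.9 and 31.8 CPM in TIR1 mice on day 3. On day 7 it had 31.8, 34.9 and 25.9 CPM in WT and 34.5, 34.3 and 33.2 CPM in TIR1 mice. The groups overlapped on both days, with a difference of 0.09 ± 0.08 (95% interval -0.08 to 0.26, adjusted p = 0.904). The highest window within 1 kb, 397 bp upstream, had a mean of 18.4 CPM and ranged from 16.5 to 21.0 CPM in WT and from 17.0 to 19.4 CPM in TIR1 mice (interval of the difference -0.18 to 0.17, adjusted p = 0.998). Among all windows at any distance, 129 had Maf as the nearest start, and the 100 kb limit kept 12. The Maf window with the smallest p, 20089 bp upstream, had only 14.9 reads per library and a difference of 0.57 ± 0.28 (adjusted p = 0.742).

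Rora is a gene of 734843 bp, and no window of the table lay within 100 kb of its annotated starts at chr9:68653404 and chr9:68653786. The nearest window that had Rora as its closest gene was 230785 bp into the gene. Inside the gene there were 130 windows in 79 regions, 108 of which are closer to the start of the neighbouring gene Ice2, and they summed to between 312 and 349.5 CPM per library, more than any of the 5 other genes. Their median was 1.40 CPM, against 1.80 CPM over all windows. The window chr9:69289696-69289897, 636010 bp from the promoter start, had 22.6 CPM (above 96.9% of all windows). GENCODE M39, which uses the later build GRCm39, lists a second cluster of Rora starts 635896 bp from the first, and the 2 distances are set side by side without converting coordinates. This window had 19.0, 18.1, 23.3 and 23.5 CPM in WT and 22.3, 23.1, 18.4 and 24.2 CPM in TIR1 mice on day 3, and 25.3, 26.3 and 19.5 CPM in WT and 22.2, 25.3 and 26.1 CPM in TIR1 mice on day 7. The groups overlapped on both days (difference 0.05 ± 0.09, 95% interval -0.13 to 0.23, adjusted p = 0.962).

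The most accessible window in Rora also had the smallest p over both days among the windows of Rora and of the 5 other genes. It is chr9:69034605-69034806, 380919 bp from the promoter start. On day 3 it had 24.3, 27.4, 24.7 and 27.2 CPM in WT and 20.5, 20.9, 23.9 and 18.6 CPM in TIR1 mice, and on day 7 25.6, 26.6 and 23.7 CPM in WT and 19.8, 22.0 and 21.8 CPM in TIR1 mice. WT mice lay above TIR1 mice on both days without overlap. The difference was -0.30 ± 0.12 on day 3 and -0.26 ± 0.12 on day 7. With the days combined it was -0.29 ± 0.09 (95% interval -0.46 to -0.11, unadjusted p = 0.00147, adjusted p = 0.432). It did not pass the adjusted test in edgeR, whereas DESeq2 gave an adjusted p of 0.0332 for it over both days. The adjustments differ, since edgeR adjusted over 240778 windows and DESeq2 over the 30712 that passed its filter on low counts, 6 of them in Rora. Of those 30712 windows DESeq2 called 155 (0.505%). Whether the adjustment accounts for the unlike results at this window was not tested. Over both days 11 of the 130 windows had an unadjusted p under 0.05 (8.46%, background 6.73%), 7 of them lower in TIR1 (background 3.57%). Of those 7, 3 were this window and the overlapping pair beside it. On day 3 the count was 5 of 125 (4.0%, background 7.55%), 3 of them lower in TIR1. On day 7 it was 8 of 128 (6.25%, background 5.95%), 3 of them lower and 5 higher in TIR1. On day 7 the 4 windows between chr9:69290564 and chr9:69291202, near the second start, were higher in TIR1, with differences of 0.54 to 0.61 and adjusted p-values of 0.682 to 0.753. Of these 4, 3 share reads.

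**Figure D4:**
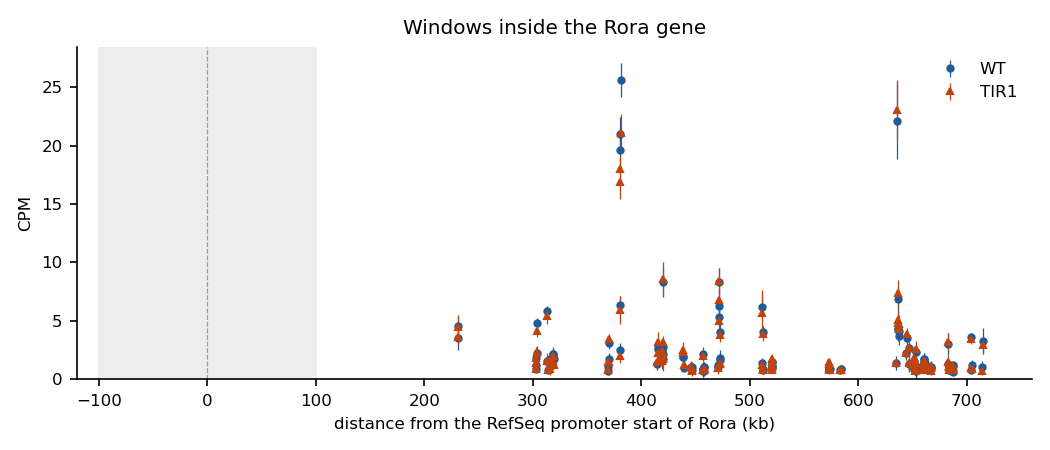
Mean accessibility in CPM (linear axis) of the 130 windows inside the Rora gene against distance from its RefSeq promoter start in kb, with circles for 7 WT and triangles for 7 TIR1 mice and bars for the SD. The shaded band is the 100 kb limit on either side of the start and holds no window, and the highest windows lie 380919 bp (23.4 CPM) and 636010 bp (22.6 CPM) from the start.

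The difference between the genotype effects of the 2 days was asked by an interaction term. Again 0 of 174 member windows passed, against 0 of 240778 (0%) over the table, and 11 members had an unadjusted p under 0.05 (6.32%, background 6.32%). Leaving out 1 mouse at a time gave 5 to 13. The lowest was 5 of 173 without WT replicate 1 of day 7 (2.89%, background 7.42%). Without TIR1 replicate 1 of day 7 the count was 13 of 172 (7.56%, background 5.52%). Of the 11 in the fit of all mice, 7 were Eomes windows. In a stretch 745 to 1239 bp upstream of the Eomes start lay 6 of these 7, and neighbouring windows there share reads. In the window with the smallest p, chr9:118476995-118477196, WT mice had 1.21, 1.65, 1.57 and 1.00 CPM and TIR1 mice 2.34, 2.25, 1.86 and 1.05 CPM on day 3. On day 7 WT mice had 1.81, 2.04 and 2.10 CPM and TIR1 mice 1.02, 1.37 and 1.06 CPM. Most TIR1 mice were higher on day 3, with overlap, and all were lower on day 7, without it. The difference was 0.44 on day 3 and -0.78 on day 7 on the log2 scale, and that between the days was -1.22 (unadjusted p = 0.00535, adjusted p = 0.70). The next window towards the start, 470 bp upstream, had differences of 0.05 and 0.15.

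**Figure D5:**
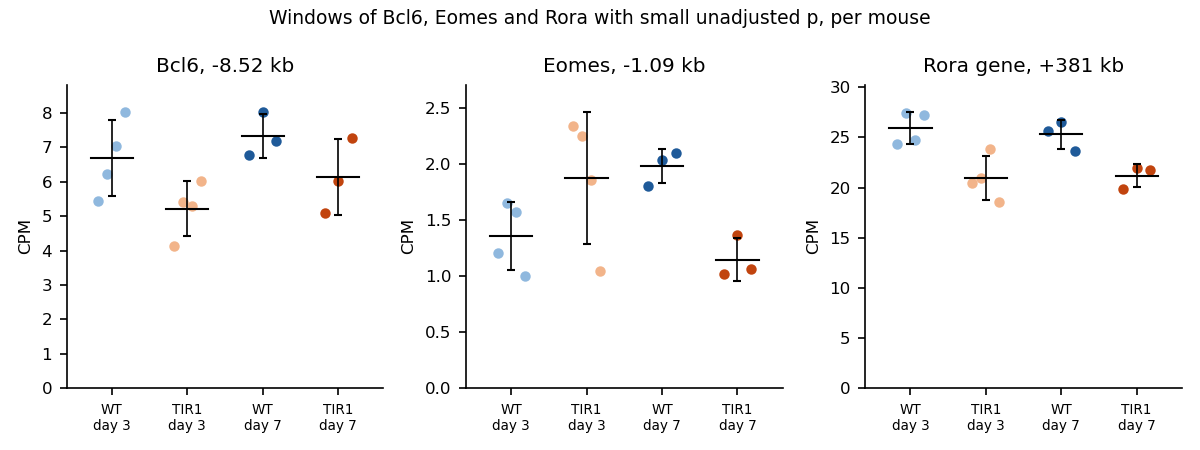
Accessibility in CPM per mouse (1 point each, mean as a line, SD as a bar, linear axes from 0) of the Bcl6 window 8524 bp upstream, the Eomes window 1091 bp upstream and the Rora window 381 kb into the gene, in 4 WT and 4 TIR1 mice on day 3 and 3 and 3 on day 7. The WT mice of the Rora window (23.7 to 27.4 CPM) lie above the TIR1 mice of the same day, and the Eomes genotypes separate on day 7 alone. All 3 were chosen for a small p and none passed the adjusted test in edgeR.

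Day 7 was also compared with day 3 within each genotype. In WT mice 0 of 166 member windows passed, against 7 of 232991 (0.003%), with 5 at an unadjusted p under 0.05 (3.01%, background 5.25%). In TIR1 mice 0 of 173 passed, against 0 of 239163 (0%), with 18 at an unadjusted p under 0.05 (10.4%, background 6.96%). The count moved when single mice of day 7 were left out. It was 8 of 169 without TIR1 replicate 1 (4.73%, background 5.24%). Without TIR1 replicate 3 it was 11 of 170 (6.47%, background 4.54%), and without TIR1 replicate 2 it was 21 of 172 (12.2%, background 6.67%). Of these shares, only that without replicate 1 lay below its background. The 18 included 7 Gata3 windows, of which 5 were higher on day 7, 6 Eomes windows, all lower and all in the stretch just upstream of its start, 3 Bcl6 windows, all higher and within 1 kb of the start, and 1 each of Tbx21 and Maf. The smallest adjusted p among them was 0.456. The Bcl6 start-site window had a day difference of 0.25 ± 0.12 in TIR1 (adjusted p = 0.685) and 0.03 ± 0.13 in WT mice (adjusted p = 0.998), and the interaction at this window was 0.22 ± 0.17 (adjusted p = 0.876), so the days could not be shown to differ by genotype there. The day comparisons share their libraries with the genotype comparisons, and day and any handling of the mice of one day cannot be told apart.

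Other genes of the 4 helper programmes, from lists of 8 Th1, 8 Th2, 9 Th17 and 8 Tfh genes, were measured in the same way. All 33 genes had windows. None of their 970 windows passed over both days, none of 966 on day 7 and none of 952 on day 3. By DESeq2, 3 of the 84 windows with an adjusted p passed over both days, all of Runx3, against 0.505% of all windows with one. Those 53748 and 53875 bp from a Runx3 start overlap and share reads. In edgeR, 1 Runx3 window passed over both days at an adjusted p under 0.1 (0.0204% of all windows), after total-count scaling (0.0154%) or among windows whose counts averaged 50 or more (0.124%), and 0 member windows did. At an unadjusted p under 0.05 there were 69 over both days (7.11%, background 6.73%), 60 on day 7 (6.21%, background 5.95%) and 62 on day 3 (6.51%, background 7.55%). The median log2 fold change over both days was -0.05 for Th1, -0.05 for Th2, 0.02 for Th17 and 0.02 for Tfh genes. The window nearest to the threshold belonged to Runx3, a Runt factor that works with T-bet in type 1 cells. Located 233 bp from a Runx3 start, it ranged from 12.0 to 16.2 CPM (median 14.8) in WT and from 8.20 to 12.1 CPM (median 10.7) in TIR1 mice. The ranges overlapped at their edges only, the difference was -0.48 ± 0.10, and the adjusted p was 0.0834.

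As a description of which loci varied alike, the summed CPM of each gene was correlated with that of 13847 genes with at least 3 windows over the 14 libraries, on a log2 scale with 0.5 CPM added. The most similar genes were Ccn4 (Pearson r = 0.92), Tnfaip3 (0.902) and Sirt4 (0.866) for Gata3, Art5, Ccdc73 and Dnajc12 (0.827 to 0.811) for Tbx21, Galnt14, Clmp and Dmpk (0.812 to 0.804) for Eomes, Tonsl, Tor1b and Pitpna (0.948 to 0.933) for Bcl6 and Cwf19l2, Xrn1 and Poc1b (0.846 to 0.779) for Maf. These are the highest of many correlations over few libraries that differ in depth, and they carry no test.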

How the data were processed

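ATAC-seq libraries of Treg cells from 14 mice were analysed. Per the study's methods and the labels, the authors aligned reads with Bowtie2 to mm10, called peaks with MACS2, kept peaks reproducible between replicates, merged them into 1 atlas and counted reads around peak summits with featureCounts. The deposited values are raw counts per 201 bp window and library, with a lowest mean count of 10.1, so weaker sites are not measured. How duplicates and the transposase offset were handled is not given in the sources used here, nor is whether window names count from 0 or 1, so that ends are uncertain by 1 base. Counts were tested with edgeR 4.0.16 (quasi-likelihood, TMM) in R 4.3.3, leaving out windows whose counts averaged under 10 over the libraries compared, with Benjamini-Hochberg adjustment over all windows and a threshold of 0.05. DESeq2 1.42.0 was an alternative, and the edgeR fit was tested on simulated data. Start sites were taken from RefSeq tables of GRCm38.p6, which give no exons. The windows described for each gene were the highest within 1 kb of a start, the highest farther away and the one with the smallest p over both days. The Eomes stretch and the Rora windows were added after their values were seen. Members and gene lists were chosen with earlier results of these data known. Alternatives were leaving out each mouse, total-count scaling, a minimum mean of 50, other distance limits, a term for the library name prefix and a replicate block. Replicate numbers did not pair the mice (correlations of deviations -0.079 to 0.065). No pair of replicates was identical, and their counts differed by more than sampling noise (chi-square per degree of freedom 1.62 to 2.46).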

Additional observations from a re-analysis of the deposited data

Results flagged for a closer look

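In 3 of 48 groups of 4 mice tested, 1 mouse stood apart from the others by Dixon's ratio of gap to range, above its 95% critical value, and chance gives this in about 5% of groups. All 3 were WT mice. Only day 3 had groups of 4, so the groups of day 7 were not tested. At the Gata3 start-site window, replicate 3 had 20.2 CPM against 18.8 to 18.9 CPM in the other 3 mice (ratio 0.931). At the Eomes window 11626 bp downstream, replicate 4 had 11.3 CPM against 9.96 to 10.0 CPM (ratio 0.939). At the Bcl6 window 2484 bp upstream, replicate 4 had 14.7 CPM against 11.6 to 11.9 CPM (ratio 0.919).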

How the results depend on the processing

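The count of member windows past the adjusted threshold was 0 under all 106 alternatives, although DESeq2 over both days gave an adjusted p to only 28 of the 174. Counts at an unadjusted p under 0.05 moved when 1 mouse was left out. From 5, that of day 3 ran from 1 without WT replicate 4 (0.606%, background 5.87%) to 11 without WT replicate 1 (6.63%, background 8.0%). From 6, that of both days ran from 3 without WT replicate 4 of day 3 (1.72%, background 5.75%) to 9 without WT replicate 2 of day 3 (5.2%, background 6.46%). From 5, that between days in WT mice ran from 2 without WT replicate 1 of day 7 (1.21%, background 6.17%) to 8 without WT replicate 4 of day 3 (4.94%, background 5.25%). Of 100 such counts under all alternatives, 25 moved by over 1.5 times. Of 852 alternative log2 fold changes at the described windows, 811 kept sign and side of the threshold, 40 changed sign, and DESeq2 put the Rora window at 381 kb past it (adjusted p = 0.0332). Of 51 fold changes, 36 kept their sign throughout. The cause of the sign changes was not tested.

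Values that changed sign were close to 0. Over both days the Maf start window gave 0.0045 with a term for the name prefix, 0.029 with a mean count of at least 50 and 0.025 with total counts. With a mean count of at least 50, day 3 gave 0.013 at the Gata3 start, 0.011 at the Gata3 window 1055 bp upstream and 0.035 at the Eomes window 11626 bp downstream, which total counts put at 0.0045. On day 7 the prefix term gave -0.021 at the Eomes window 995 bp into the gene and -0.016 at the Rora window near the second start, which a mean count of at least 50 put at -0.0050. With the replicate block, 0 member windows passed in the genotype comparisons and the interaction, and the Maf start window over both days gave 0.0020. The replicate numbers do not pair the mice, and the block could not be fitted for the comparisons between days.

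Leaving out 1 mouse at a time, the Maf start window ranged from -0.025 to 0.031 over both days, -0.012 to 0.058 on day 3 and -0.077 to 0.047 on day 7, and the Maf window 1009 bp upstream from -0.00051 to 0.094 on day 3. The Tbx21 start ranged from -0.036 to 0.13 over both days, the Tbx21 window 11959 bp upstream from -0.087 to 0.21 on day 7 and that 11330 bp upstream from -0.28 to 0.095 on day 3. The Eomes window 995 bp into the gene ranged from -0.091 to 0.0082 over both days and -0.038 to 0.20 on day 7, and the Eomes window 11626 bp downstream from -0.086 to 0.016 on day 3. The Bcl6 start ranged from -0.063 to 0.094 on day 7, the Gata3 window 11332 bp downstream from -0.36 to 0.00044 on day 7, and the Rora window near the second start from -0.072 to 0.11 on day 7.

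Windows of the other helper genes called over both days numbered 3 with DESeq2 (background 0.505%), among them an overlapping pair that shares reads. They numbered 1 each at an adjusted p under 0.1 (background 0.0204%), at a mean count of at least 50 (0.124%) and with total counts (0.0154%), against 0. Leaving out a mouse gave 0 to 1, with Runx3 called without TIR1 replicate 1 of day 3 (adjusted p = 0.0415) or WT replicate 3 of day 7 (0.025). A limit of 10 kb kept 77 member windows. Windows with few reads had intervals too wide to show small differences.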
